A study of Mus musculus with 2 samples.

Results

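Terminal transferase and the genes that work beside it in receptor assembly are described here: *Dntt*, *Rag1*, *Rag2*, *Ptcra* and *Cd24a*, 5 genes of 19938 with a probe set of their own. The set was chosen by function around *Dntt*, a gene that stood out by its log2 ratio between these same 2 arrays, so every value below is a description of those arrays and none is a test. Each of the 5 genes had 1 probe set.

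The samples are CD4+ T cells of the pancreatic lymph nodes (PLN) of 8-week-old BDC mice, sorted as live CD3+CD4+ cells 48 hours after 1 mg of antibody in vivo. One array holds cells of mice given the nondepleting anti-CD4 antibody YTS177 (ND αCD4), the other cells of mice given the isotype control Ab 2A3. Both groups carry the same transgenes, the rearranged α and β chains of a β cell-specific receptor, on the NOD background, and the line's name lists no change in a *Rag* gene, so the mice keep their own recombination machinery. The labels put age and antibody under each other's headings, give the BDC line another clone number than the methods, and give 1 mg where the methods give a range of doses. PLN of several mice were pooled for each sort per the methods, and there is 1 array per condition, so no difference has a replicate check and no p-value is given. A lower or higher share of cells that express a gene and a change per cell cannot be told apart in such a pool.

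Lymphocytes assemble their antigen receptors by cutting and rejoining gene segments. RAG1 and RAG2 form the nuclease that cuts beside the segments. Terminal transferase, encoded by *Dntt*, adds bases without a template at the open ends, and the end joining enzymes seal them. *Ptcra* encodes the pre-TCRα chain, the partner of a new β chain before an α chain exists. CD24 is a surface glycoprotein of immature thymocytes whose level falls as T cells mature in the periphery. These genes are known for expression in the thymus, and in the bone marrow for *Dntt* and the *Rag* genes. *Dntt*, the *Rag* genes and *Ptcra* are mostly silent in mature T cells.

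*Dntt* gave a log2 signal of 7.65 in isotype control cells and 8.88 after ND αCD4, a log2 ratio of 1.24, or 2.36-fold higher after ND αCD4. The isotype control value lay at the background of its array, 7.64, which is the 95th percentile of 1210 probe sets of olfactory and vomeronasal receptors, genes that T cells are not known to express. In the ND αCD4 array, where background was 7.56, *Dntt* lay 1.32 log2 units above it. In other words, the transcript was at the limit of detection in control cells and clearly above it after ND αCD4. Counted against the receptor probe sets themselves, 60 of the 1210 were as bright as *Dntt* or brighter in control cells and 4 after ND αCD4. With background set at the 99th percentile (8.39 in the isotype control array) the control value is only a bound, and *Dntt* was at least 1.41-fold higher.

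Among the 13222 genes above background in at least 1 array, *Dntt* ranked 2 by log2 ratio. The middle 95% of these genes lay between -0.39 and 0.28, with a median of -0.01. The receptor probe sets, of genes that T cells are not known to express, ranged from -0.57 to 0.77. The *Dntt* difference exceeded that of each of them, though 3 of the 1210 were themselves at least 1.5-fold higher and 0 lower. The ratio and its rank are what brought the gene into the set. Neither the rank nor the comparison with the receptor probe sets therefore supports anything by itself.

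**Figure D1:**
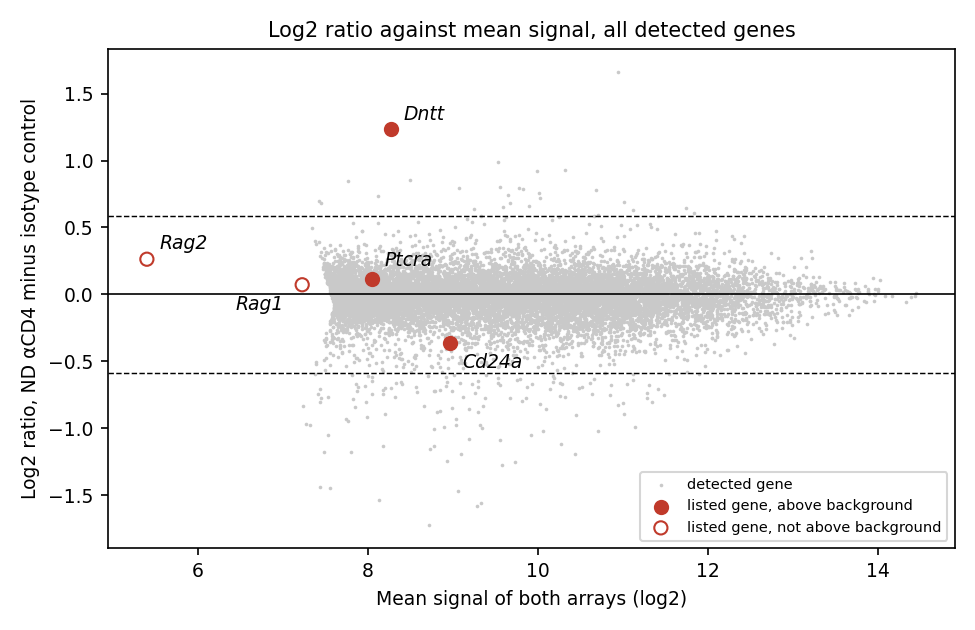
Log2 ratio (ND αCD4 minus isotype control) against mean log2 signal for each of 13222 detected genes (gray), with the 5 genes in red, filled where above background and open where not. *Dntt* lies at 1.24 and ranked 2 of the 13222 genes, the ratio for which it was chosen. *Rag1* and *Ptcra* lie close to 0, *Rag2* lies at 0.26 and *Cd24a* at -0.37. Dashed lines mark 1.5-fold.

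*Rag1* and *Rag2*, which encode both subunits of the nuclease, did not exceed background in either array. *Rag1* read 7.19 in isotype control cells and 7.26 after ND αCD4. *Rag2* read 5.26 and 5.53. Their measured log2 ratios of 0.07 and 0.26 lie inside the range of the receptor probe sets and are ratios between values below background, so no fold is given for either gene. Transcripts of the cutting enzyme were thus not detectable in either pool, including the pool in which *Dntt* was. A probe set below background sets no limit on the number of transcripts, and its own sensitivity is not known.

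*Ptcra* exceeded background in both arrays by a small margin, with 7.99 in isotype control cells and 8.11 after ND αCD4. Its log2 ratio of 0.12 ranked 2036 of 13222. With background at the 99th percentile it was not above it in either array. The pre-TCRα transcript therefore sat near the limit of detection in both pools and differed little between them.

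*Cd24a* was the only one of the 5 genes with a lower signal after ND αCD4. It read 9.14 in isotype control cells and 8.78 after ND αCD4, a log2 ratio of -0.37, or 1.29-fold lower. It was above background in both arrays by at least 1.21 log2 units and ranked 392 from the lowest of the 13222 genes. Unlike *Dntt*, then, *Cd24a* was well above background in control cells, and its measured signal was lower after ND αCD4. Its ratio lay inside the range of the receptor probe sets (-0.57 to 0.77) and did not reach 1.5-fold. It also lay between -0.39 and 0.28, the limits given above for the middle of the detected genes. With 1 array per condition, no direction of change is read from it.

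**Figure D2:**
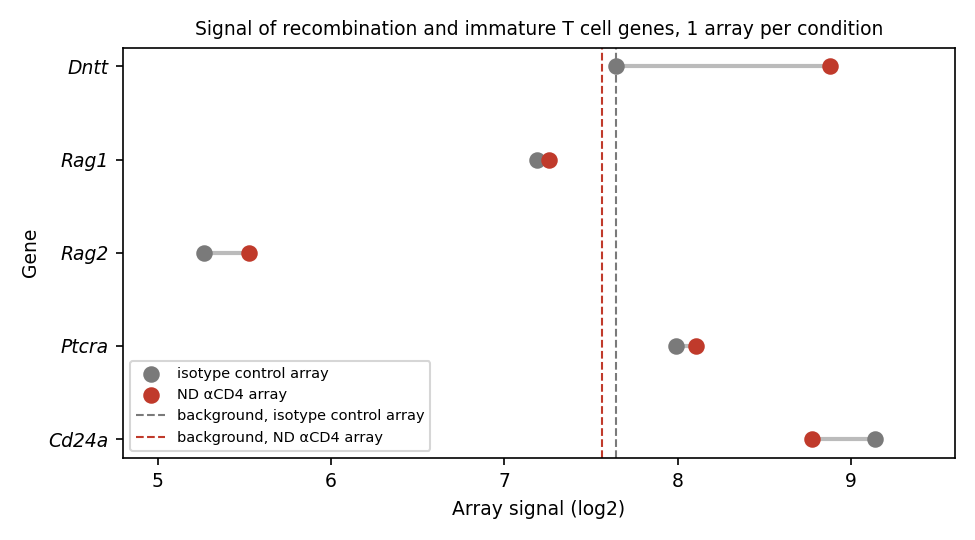
Log2 signal of each gene, gray for isotype control and red for ND αCD4 (1 array per condition), with dashed lines at the background of either array. *Dntt* goes from the background line at 7.65 to 8.88, both *Rag* genes stay to the left of the lines, and *Cd24a* goes from 9.14 to 8.78. Probes differ between genes, so signals are compared only within a gene.

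By the size rule of 1.5-fold, 1 of the 5 genes (*Dntt*) was higher, beside 0.212% of all detected genes, and 0 of 5 were lower, beside 1.01% of all detected genes. As *Dntt* entered the set for its ratio, nothing is read from this count. Over all 5 genes, 4 had a log2 ratio above 0 and 1 below 0. Only 3 of them (*Dntt*, *Ptcra* and *Cd24a*) were above background, beside 66.3% of all 19938 genes. By sign alone, the 5 genes thus did not differ in 1 direction. The ratio below 0, that of *Cd24a*, lay inside the range of the receptor probe sets.

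Each gene was placed on the mouse genome (GRCm38.p6) by the RefSeq gene table. *Dntt* lies at chr19:41029275-41059525, spans 30251 bases and has 2 curated RefSeq transcripts, both of which its probe set is annotated to, so that the splice forms of terminal transferase cannot be told apart here. *Rag2* (chr2:101624712-101632528) and *Rag1* (chr2:101638252-101649532) are neighbors, 5724 bases apart. *Ptcra* lies at chr17:46755663-46763712 and *Cd24a* at chr10:43579169-43584265.

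Of the nearest genes to *Dntt* with a probe set, only *Tll2* was above background, by a small margin, and it did not share the *Dntt* difference. *Opalin*, a myelin gene 2434 bases beyond it, was not above background in either array (7.05 in both). *Tll2*, which encodes a secreted protease, had a log2 ratio of -0.08 (7.78 in isotype control cells and 7.69 after ND αCD4). Both other neighbors of *Dntt*, a lncRNA gene and a pseudogene, had no probe set of their own symbol. *Iftap*, which overlaps *Rag2* in the annotation, was not above background in either array (5.62 and 5.49), and *Traf6*, a signaling adaptor beyond *Rag1*, had a log2 ratio of 0.01 at 11.00 and 11.01. Beside *Ptcra*, *Cnpy3*, a chaperone of Toll-like receptors, was at 0.00 and *Rpl7l1* at -0.31, while *Gnmt* was not above background. Beside *Cd24a*, *Mtres1* was at 0.05 and the lncRNA gene *F930017D23Rik* at 0.16.

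The 250 bases before the annotated start are shown for *Dntt*, whose signal stood apart, and for the *Rag* genes, which stayed below background. Sequences are those of RefSeq on GRCm38.p6, written 5′ to 3′ on the strand of the gene. Capitals mark the matches, on either strand, to the E-box CANNTG (bound by E proteins such as E2A and HEB), the FOXO core GTAAACA, the Runx core TGTGGT, the GATA core AGATAA and the letters CTCATT, which belong to the initiator known from *Dntt*.
Dntt (chr19:41029025-41029274, + strand): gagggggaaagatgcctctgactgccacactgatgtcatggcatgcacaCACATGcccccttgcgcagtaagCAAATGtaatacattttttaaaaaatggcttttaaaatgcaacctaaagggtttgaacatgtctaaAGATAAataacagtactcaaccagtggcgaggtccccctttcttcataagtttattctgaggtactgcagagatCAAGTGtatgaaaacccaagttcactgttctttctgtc
Rag1 (chr2:101649533-101649782, - strand): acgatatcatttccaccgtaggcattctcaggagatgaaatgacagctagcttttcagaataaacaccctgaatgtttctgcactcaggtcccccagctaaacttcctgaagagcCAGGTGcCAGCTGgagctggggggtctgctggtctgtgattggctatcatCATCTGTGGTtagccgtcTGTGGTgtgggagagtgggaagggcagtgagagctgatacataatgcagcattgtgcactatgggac
Rag2 (chr2:101624462-101624711, + strand): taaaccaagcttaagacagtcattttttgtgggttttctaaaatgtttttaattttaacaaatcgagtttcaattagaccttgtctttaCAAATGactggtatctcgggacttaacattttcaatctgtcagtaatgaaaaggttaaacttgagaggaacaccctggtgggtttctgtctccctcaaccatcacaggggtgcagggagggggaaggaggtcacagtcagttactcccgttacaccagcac

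The *Dntt* window held 3 E-boxes and 1 GATA core, the E-box nearest to the start (CAAGTG) lying 38 to 33 bases before it. The *Rag1* window held 3 E-boxes and 2 Runx cores, and the E-box CATCTG overlaps the first Runx core. The *Rag2* window held 1 E-box (CAAATG). No window contained the FOXO core or the letters CTCATT, which says only that these letters are not in these bases. Bases at and after the start were not searched, so letters that span the start would be missed. Among 32851 windows of the same length in the RefSeq table, 66.2% held an E-box, 14.0% a Runx core, 9.99% a GATA core, 13.7% the letters CTCATT and 3.17% a FOXO core. A match is a description of the sequence, and binding was not measured.

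Transcription factors known to act on the *Rag* genes or *Dntt* were measured for 19 of 20 listed genes, all above background. The log2 ratio was above 0 for 15 and below 0 for 4 of them, none reached 1.5-fold, and the median was 0.06, beside -0.01 over all detected genes. For this list and those below, the reference is all 13222 detected genes, of which 6170 lay above 0 and 6966 below 0. *Foxo1*, a direct activator of the *Rag* genes in developing B cells, was at 0.20 (12.46 in isotype control cells and 12.65 after ND αCD4), and its relative *Foxo3* at 0.14. *Lef1*, which acts with its relative TCF1 in early T cell development, was at 0.14. *Gfi1*, a repressor used by lymphoid progenitors, was at -0.20. For the families whose motifs are marked above, the E protein genes *Tcf3* (E2A) and *Tcf12* (HEB) were at 0.10 and 0.03, *Gata3* at 0.05 and *Runx1* at 0.11. Their antagonists *Id2* and *Id3*, which hold E proteins off DNA, were at 0.08 and 0.06. The whole group lay between -0.20 and 0.20 on the log2 scale, against 1.24 for *Dntt*.

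End joining enzymes and the polymerases related to terminal transferase were measured for 15 of 16 listed genes, all above background in both arrays. The log2 ratio was above 0 for 4 and below 0 for 11 of them, with none past 1.5-fold and a median of -0.09. The closest relative of terminal transferase, *Polm*, which encodes DNA polymerase μ, read 9.86 in isotype control cells and 9.67 after ND αCD4, a log2 ratio of -0.18. The other family X polymerases were near 0, with *Poll* at -0.07 and *Polb* at 0.03. *Dnttip1* and *Dnttip2*, named for binding terminal transferase, were at 0.04 and -0.09. Of the 4 family X polymerase genes, *Dntt* alone was past 1.5-fold. As *Dntt* was chosen for its ratio, nothing is read from this.

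Of the end joining genes proper, those encoding the Ku heterodimer that holds broken ends, *Xrcc5* and *Xrcc6*, were lower, at -0.26 (10.56 and 10.30) and -0.21 (9.07 and 8.86). *Lig4*, the ligase of the pathway, was at -0.10 and its partner *Xrcc4* at -0.04. *Hmgb1* and *Hmgb2*, which encode DNA bending proteins that assist RAG cleavage, went opposite ways, at 0.45 (8.33 and 8.78) and -0.21 (10.16 and 9.95). *Hmgb2* has 4 probe sets, of which the brightest was used.

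RAG2 protein is destroyed at entry into S phase after phosphorylation by cyclin A and CDK2, through the ubiquitin ligase subunit SKP2, and RAG1 is bound by a ligase that contains DCAF1. All 10 listed genes of these steps were above background, 3 with a log2 ratio above 0 and 7 below 0, with a median of -0.08. Past 1.5-fold lower was 1 of the 10, beside 1.01% of all detected genes, and none was 1.5-fold higher. This was *Ccna2*, at 10.11 in isotype control cells and 8.55 after ND αCD4, 2.94-fold lower. *Skp2* was at -0.17, *Cdk2* at -0.15 and the CDK inhibitor gene *Cdkn1b* at 0.18. As neither *Rag* transcript was detected, these values say nothing of RAG protein in these cells.

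The pre-TCR signals through the CD3 chains and the kinases of the mature receptor, and in thymocytes *Ptcra* is a target of Notch. Of 14 measured genes of this group 13 were above background, 8 with a log2 ratio above 0 and 5 below 0, none past 1.5-fold, with a median of 0.02. *Syk*, a kinase that works beside ZAP-70 in early thymocytes, was above background only after ND αCD4 (7.51 and 7.81) and at least 1.12-fold higher. *Hes1*, a Notch target, was likewise above background only after ND αCD4 (7.61 and 7.81), at least 1.12-fold higher. *Dtx1*, a further Notch target, was at -0.28 (12.25 and 11.96) and *Zap70* at -0.14. Genes around *Ptcra* thus differed by little, in both directions.

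Genes of CD24 interaction and of the surface of recent thymic emigrants were measured for 12 of 17 listed genes, 9 with a log2 ratio above 0 and 3 below 0, with a median of 0.10. At least 1.5-fold higher were 2 of the 12, beside 0.212% of all detected genes, and none was 1.5-fold lower, beside 1.01%. *Cd55*, a complement regulator gained as T cells mature, was 1.74-fold higher, with 8.67 in isotype control cells and 9.47 after ND αCD4. *Il7r*, the IL-7 receptor chain, was 1.52-fold higher (11.54 and 12.14). *Klf2* and its target *S1pr1*, which direct exit from the thymus and lymph nodes, were at 0.50 and 0.41. *Siglecg*, which encodes a receptor for CD24, was at -0.23, close to background (8.09 and 7.86). *Ptk7* and *Pecam1*, known as emigrant markers in human blood, were at -0.02 and 0.10. Of the remaining members, *Nt5e* was at 0.11, *Ccr7* at 0.03 and *Cd28* at -0.01.

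**Figure D3:**
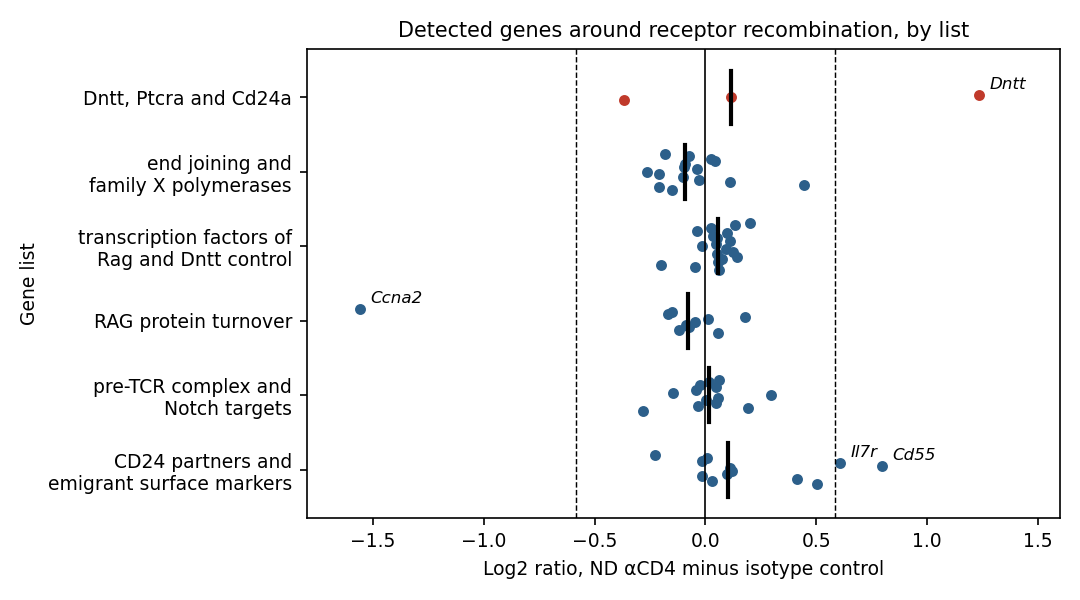
Points are the detected genes of every pathway list, placed by log2 ratio (ND αCD4 minus isotype control), and black bars are medians, with a solid line at 0 and dashed lines at 1.5-fold. Past 1.5-fold are *Dntt* (1.24), *Cd55* (0.80), *Il7r* (0.61) and *Ccna2* (-1.56). Points are spread vertically for legibility only.

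The labelled cell type was checked on its markers. For the marker counts below, the reference is all 19938 genes, of which 66.3% were above background in at least 1 array. All 8 CD4 T cell markers were far above background in both arrays, with *Cd3e* at 13.76 and 13.78 and *Cd3g* at 13.76 and 13.74, and none differed by more than 0.13. *Cd4* itself read 13.38 and 13.48. Both pools thus carried these T cell transcripts at like levels. Apart from *Cd4*, the markers are shared with other T cells. They do not measure the share of other cells in either pool, whose markers follow.

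*Dntt* is also a gene of double-positive thymocytes, the stage that carries both CD4 and CD8, and the labels name no gate against CD8. Of 13 measured markers of that stage, 9 were above background in each array. Without *Dntt*, *Rag1*, *Rag2* and *Ptcra* there remain 9, of which 7 were above background, with a mean log2 signal of 9.99 in isotype control cells and 10.13 after ND αCD4. Apart from the *Rag* genes, *Arpp21* (6.88 and 6.89) and *Aqp11* (7.14 and 7.22) were not above background in either array. *Themis* (12.11 and 12.16) and *Tox* (12.07 and 12.07), which mature T cells also express, did not differ past 0.05. *Cd8a* and *Cd8b1* were higher beside *Dntt*, at 0.72 (9.67 and 10.39) and 0.45 (11.38 and 11.83). *Cd1d1* was at 0.23, *Sox4* at -0.07 and *Ccr9* at -0.24. *Ptcra* was at 0.12. Of the 9 detected markers, 2 (*Dntt* and *Cd8a*) were at least 1.5-fold higher, beside 0.212% of all detected genes. None was 1.5-fold lower, beside 1.01%. *Dntt* is in this count by its selection.

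Of the 5 CD8 T cell markers, 4 were above background in control cells and 5 after ND αCD4, with a mean log2 signal of 10.18 and 10.50. The median log2 ratio of the list was 0.45. By measured ratio 2 of the 5 genes were past 1.5-fold higher, beside 0.212% of all detected genes, and none lower. These were *Cd8a*, 1.65-fold higher, and *Klrd1*, a receptor of natural killer and CD8 T cells, which was above background only after ND αCD4 (7.34 and 8.19) and so at least 1.46-fold higher. *Cd8b1* was at 0.45, while *Gzmk*, a granzyme gene, was at -0.13 and *Eomes*, a T-box transcription factor, at -0.31. Both *Cd8* genes and *Klrd1* were thus higher in the same array as *Dntt*, and *Gzmk* and *Eomes* were lower in it. The part of CD8-expressing cells in the *Dntt* difference was not tested.

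Double-negative thymocytes, the stage before, express *Ptcra* strongly. Of 9 measured markers of this stage 6 were above background in each array, with a mean log2 signal of 8.64 and 8.57. *Il2ra* and *Cd44*, both also genes of activated T cells, were the brightest and were lower, at -0.59 and -0.22. Past 1.5-fold lower was 1 of the 6 (*Il2ra*, 1.51-fold), beside 1.01% of all detected genes. At least 1.5-fold higher were 0 of the 6, beside 0.212%. *Kit*, the stem cell factor receptor of early thymocytes, was at -0.17 (8.31 and 8.14), and *Hhex*, *Mycn* and *Spi1* were not above background.

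B cell progenitors of the bone marrow share *Dntt* and the *Rag* genes. The 4 genes of the surrogate light chain and its relative (*Vpreb1*, *Vpreb2*, *Vpreb3* and *Igll1*) had a mean log2 signal of 7.95 in isotype control cells and 7.90 after ND αCD4. The brightest, *Vpreb2*, was at -0.02 (8.75 and 8.73), and *Vpreb1* was not above background. Mature B cell markers were above background for 5 of 8 genes in control cells and 6 after ND αCD4, with a mean log2 signal of 8.08 and 8.16. The brightest of them were *Cd79b* (10.34 and 10.44) and *Ighm* (8.44 and 8.26), while *Ebf1* and *Blnk* were not above background. *Vpreb3* (7.92 and 7.77) and *Igll1* (7.94 and 8.00) lay near background. The part of B lineage cells in the *Dntt* difference was not tested.

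**Figure D4:**
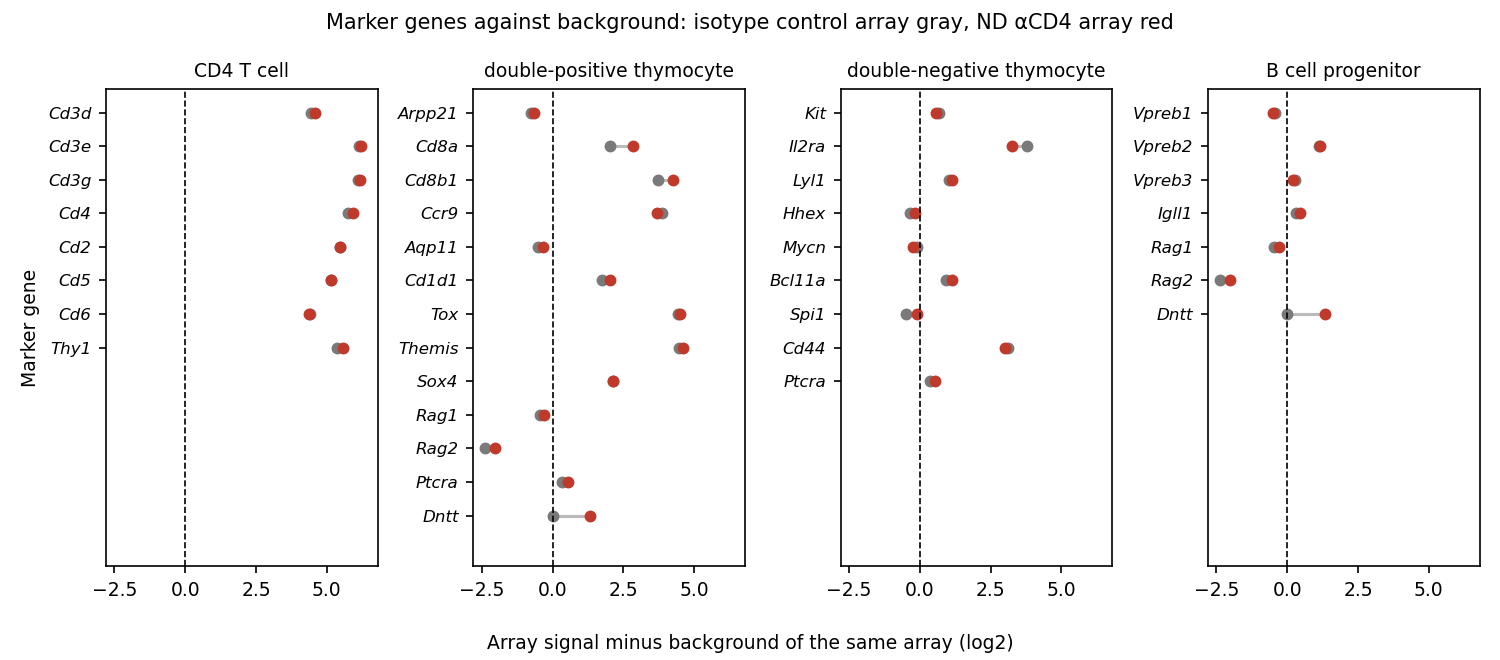
Signal of each marker gene minus the background of its array (log2), isotype control array in gray and ND αCD4 array in red, for CD4 T cells and 3 stages of immature lymphocytes. CD4 T cell markers lie far to the right of the dashed background line in both arrays, and of the immature lymphocyte markers *Dntt* shows the widest gap, from 0.00 to 1.32.

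CD24 and pre-TCRα are also known from other cells, so their markers are given too. Plasmacytoid dendritic cell genes were above background for all 8 measured, with a mean of 9.33 and 9.30. The highest signals were in *Bst2* and *Ccr9*, which T cells also express. *Pacsin1* (10.35 and 10.34) and *Cox6a2* (9.12 and 9.06) were well above background too. *Siglech* (7.88 and 7.81), *Spib* (7.74 and 7.95), *Ly6d* (8.07 and 8.05) and *Tcf4* (8.33 and 8.44) lay closer to it. Dendritic cell and macrophage genes were above background for 6 of 11, with a mean of 8.00 and 8.08. The brightest were *H2-Eb1* (9.36 and 9.50) and *Cd68* (9.17 and 9.40), and *Itgax*, *Flt3*, *Csf1r*, *Cd14* and *Adgre1* were not above background. Neutrophil genes had a mean of 7.10 and 7.14, with *Camp* and *Mpo* the brightest and *S100a8* and *Ly6g* not above background. Of the erythroid list 2 genes were measured, *Alas2* (7.46 and 7.74) and *Epb42* (not above background). The part of such cells in the *Cd24a* difference was not tested.

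The 5 named genes nearest to *Dntt* in log2 ratio over the 2 arrays were *Ppp1r15a* (0.99), *Pdlim4* (0.93), *H1f2* (0.92), *Plac8* (0.86) and *Klrd1* (0.85, at least 1.46-fold higher). Their differences from the *Dntt* ratio ran from -0.25 to -0.39, so none matched it closely. They include a stress-induced phosphatase subunit, a linker histone and a natural killer cell receptor, and with 2 arrays a like ratio describes a pair of values only.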

How the data were processed

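Sorted PLN CD4+ T cells were measured on 2 arrays, 1 per antibody. The authors deposited log2 values for 35557 probe sets. Affymetrix Expression Console is the tool in the submitters' processing notes; its version, background correction and normalization: not given in the sources used here. A log2 scale was inferred from the range (2.52 to 14.7) and the near equal medians (8.15 in both arrays). The probe annotation belongs to an earlier mouse gene ST design than that of the methods.

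Probe sets with 1 symbol (21789; several symbols for 1621, none for 12147) gave 19938 genes, and the probe set of highest mean represented a gene. Of the 21789 probe sets, 21698 matched RefSeq by gene identifier. Background was the 95th percentile of the receptor probe sets in each array, and a gene above it in at least 1 array was called detected. A gene below it in 1 array has a bound against that level. The log2 ratio was ND αCD4 minus isotype control. No test was run. Precision is limited by the number of arrays. Members, 5 pathway lists, 10 marker lists and the naming rule (up to 4 genes of largest ratio per pathway list, up to 2 brightest per marker list, neighbors, the 5 genes nearest to *Dntt* without pseudogenes, receptor segments, small RNAs and predicted genes) were chosen with earlier results of these data known. Further list genes were named for their known role after their values were seen. Functions were tested on simulated data. List genes without a probe set of 1 symbol were not analysed here. Software was matplotlib 3.10.9, statsmodels 0.14.6, pandas 2.3.3 and numpy 2.4.6 under Python 3.11.15.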

Additional observations from a re-analysis of the deposited data

How the results depend on the processing

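Centring on the median, quantile normalization, lowess correction and the mean of probe sets kept the log2 ratio of *Dntt* between 1.23 and 1.24, of *Cd24a* at -0.37, of *Ptcra* at 0.12, of *Rag1* between 0.06 and 0.08 and of *Rag2* between 0.25 and 0.26. Flooring at background changed none of the first 3 and gives no value for the *Rag* genes, which lie below it in both arrays. A move was judged against 0.0929, the SD within genes that have 2 detected probe sets (550 genes), which covers no difference between mice. The medians of the 5 pathway lists moved by less than this under all 10 alternatives. Without a filter 5 members counted as detected, by construction. At 2-fold, *Dntt* was still past the rule, with 2 genes higher and 25 lower among all detected genes. Under the other alternatives, 25 to 41 genes were higher and 106 to 151 lower. Background at the 99th percentile turned the ratio of *Dntt* into a bound below 1.5-fold (at least 1.41-fold), although the count by measured ratio kept *Dntt*, and left *Ptcra* above it in neither array. No paired analysis was possible because each condition has 1 array.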
